A study of Mus musculus with 20 samples.

Results

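Striated muscles of the body use related but separate genes for the same parts of the contractile machine, and the 10 genes described here encode versions that are typical of skeletal muscle. They were chosen by name from 18657 genes in a table of hearts at 6 months of age and 17808 genes in a table at 6 weeks, and all 10 are listed in both. They are Acta1 (skeletal alpha-actin), Mybpc2 (fast myosin-binding protein C), Myl1 (alkali myosin light chain of fast fibres), the troponin genes Tnni1, Tnni2, Tnnt1 and Tnnt3, Casq1 (skeletal calsequestrin), Atp2a1 (the fast-fibre calcium pump SERCA1) and Actn3 (alpha-actinin-3). The set was proposed after Acta1, Casq1 and Mybpc2 had been seen to be high in knockout hearts at 6 weeks. The 6-week contrast is therefore given as a description without a test.

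The hearts came from mice with an intact Sorbs2 gene (WT) or a targeted Sorbs2 gene (KO), the gene of a scaffold protein that sits at Z-discs and on actin filaments. At 6 weeks there were 3 WT and 3 KO libraries, and at 6 months 5 WT and 5 KO libraries, all from untreated mice. A further 4 KO libraries (KO+AAV) came from mice that received AAV9-Tnnt2-Sorbs2 on postnatal day 2 and were sampled at 6 months. This virus returns Sorbs2 under the Tnnt2 promoter, which is active in cardiomyocytes. The labels call the tissue left ventricle and the protocol ventricular myocardium, and neither gives the strain or the sex, nor says whether mice were littermates. Replicates are separate libraries, and where the labels do not say that each is 1 animal the p-values measure the spread between libraries.

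In adult ventricle, thin filaments are built mainly from cardiac actin (Actc1) with cardiac troponins (Tnni3, Tnnt2), and thick filaments carry Mybpc3 and the ventricular light chain Myl3. Calcium is stored on Casq2 and pumped back by SERCA2 (Atp2a2). Acta1 and Tnni1 are expressed in the heart before birth, and a return of Acta1 is a known mark of loaded or failing rodent hearts. Mybpc2, Casq1, Tnni2, Tnnt3, Atp2a1 and Actn3 are best known from fast skeletal fibres, and Tnnt1 from slow fibres.

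Sorbs2 itself was lower in every KO library than in every WT library of its age. At 6 months it stood at 4562 to 5398 in WT, at 494 to 612 in KO libraries 2, 3 and 4, and at 1648 and 1755 in KO libraries 1 and 5. KO+AAV libraries 1 to 4 held 4696, 5753, 15690 and 17923. Summed over genes, an adult library held 11359135 to 13670340 normalised counts and a 6-week library 6705133 to 8240294. The transcript Xist, which marks female mice, was high at 6 months in WT libraries 4 and 5 (4789 and 6934) and in KO+AAV libraries 1 and 3 (5529 and 5699), and at 6 weeks in WT1 and KO2 (3148 and 2079). It stood between 0 and 33.3 in the other adult libraries, all 5 KO libraries among them, and between 23.7 and 66.0 in the other young ones. Libraries above 100 are called those with Xist, and the rest those without. The 6 atrial markers (Myl4, Myl7, Sln, Bmp10, Dkk3 and Mybphl) summed to 41726.6 to 74641.8 per library at 6 weeks in both genotypes, but to 53.6 to 1538.1 at 6 months, so the 6-week libraries hold atrial transcripts that most of the 6-month libraries nearly lack. KO library 3 had the highest sum at 6 months. The 10 cardiomyocyte markers, which include Myh6, Ttn and Ryr2, were abundant in all libraries, with a sum of 1309957 to 1585858.9 in WT, 828644.9 to 1116827.9 in KO and 1156217 to 1776130.3 in KO+AAV at 6 months. In bulk tissue, fewer cells of a type and less RNA per cell cannot be told apart.

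The stretches just before the RefSeq transcription start of Acta1, Mybpc2 and Myl1 are shown. These were picked because the genes had large increases at 6 months and their windows hold letters of known muscle promoter elements. RefSeq sequences (GRCm38.p6) were given for 7 of the 10 genes, and each window covers the 250 bases before the start, 5′ to 3′ on the gene's own strand (the minus strand for all 3). Capitals mark matches to the MCAT motif CATTCC, which TEAD factors bind, read as CATTCC or on the opposite strand as GGAATG, and to the CArG box, which serum response factor binds. The windows lie at chr8:123894776-123895025 (Acta1), chr7:44524670-44524919 (Mybpc2) and chr1:66945057-66945306 (Myl1).
Acta1: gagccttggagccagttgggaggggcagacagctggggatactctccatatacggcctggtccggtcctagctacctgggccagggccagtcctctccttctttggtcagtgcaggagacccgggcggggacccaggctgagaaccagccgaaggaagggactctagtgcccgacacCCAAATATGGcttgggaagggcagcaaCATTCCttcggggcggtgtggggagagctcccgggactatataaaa
Mybpc2: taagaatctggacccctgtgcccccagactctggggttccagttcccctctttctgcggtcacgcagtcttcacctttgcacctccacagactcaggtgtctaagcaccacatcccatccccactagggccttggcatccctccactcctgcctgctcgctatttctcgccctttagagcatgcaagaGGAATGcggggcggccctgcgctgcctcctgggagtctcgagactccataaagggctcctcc
Myl1: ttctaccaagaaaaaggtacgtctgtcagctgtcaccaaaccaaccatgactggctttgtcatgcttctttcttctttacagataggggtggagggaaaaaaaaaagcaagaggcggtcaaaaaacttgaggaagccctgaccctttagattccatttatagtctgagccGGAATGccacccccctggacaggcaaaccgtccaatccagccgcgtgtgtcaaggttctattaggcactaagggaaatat
Acta1 held a CArG box 73 bases and an MCAT motif 46 bases before the start. Mybpc2 and Myl1 held MCAT on the opposite strand, 62 and 80 bases before the start. All these distances are to the RefSeq start, which differs from the gene ends given below. The Acta1 and Mybpc2 windows begin some bases beyond those ends, and the Myl1 window lies inside the span given for the gene. No match to either motif, or to the MEF2 motif, was found in the windows of Casq1, Tnni1, Tnnt1 and Atp2a1. Of 32851 mouse promoter windows of the same length, 12.6% held MCAT, 1.47% a CArG box and 2.92% the MEF2 motif. These matches describe letters, not occupied sites, and the motifs were chosen after the values had been seen.

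The comparison of adult KO with WT hearts asks how these transcripts differ at 6 months where Sorbs2 is targeted and its transcript is lower. The groups also differ in Xist, which WT libraries 4 and 5 had and all 5 KO libraries lacked. Acta1, Mybpc2, Myl1, Casq1 and Tnni1 rose in KO, between 5.09-fold and 15.8-fold as a ratio of group means. Tnni2, Tnnt1 and Atp2a1 fell, and Tnnt3 did not pass. By these calls the isoforms did not all change in 1 direction, but the decreases were the less stable calls. They were lost in 2 of 24 alternatives for Tnni2, 11 of 24 for Tnnt1 and 7 of 23 for Atp2a1, while the increases held in all 24. A gene was tested in limma when its normalised count reached 10 in at least 4 libraries, which 9 of the 10 did, all but Actn3. Of 13419 genes tested, 2189 (16.3%) passed an adjusted p of 0.05, 8.13% as increases and 8.18% as decreases. Among the 9 tested genes 5 passed as increases and 3 as decreases. This count leans on the filter. Tnni1 reached 10 in 5 of 5 KO and 2 of 4 KO+AAV libraries but in 0 of 5 WT libraries. Tnni2 reached 10 in 5 of 5 WT and 4 of 4 KO+AAV libraries but in 1 of 5 KO libraries. Atp2a1 did so in 4 of 5 WT libraries, 1 of 4 KO+AAV libraries and 0 of 5 KO libraries.

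Acta1, on chromosome 8 (123891769 to 123894751, mm10, minus strand), was the most abundant of the 10. Its normalised counts in WT libraries 1 to 5 were 21525, 12343, 14811, 3937 and 4057. In KO libraries 1 to 5 they were 66947, 42515, 38750, 54868 and 85590. Every KO library was above every WT library. Within WT, libraries 4 and 5, the pair with Xist, lay well below the other 3. The means were 57734 ± 19112 in KO and 11335 ± 7494 in WT (SD, n = 5 each), with a log2 change of 2.60 (SE 0.52, limma adjusted p = 0.00294). Among libraries without Xist the log2 change was 1.81 (adjusted p = 0.00265), and without KO libraries 1 and 5, those of higher Sorbs2, it was 2.30 (adjusted p = 0.0293).

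Mybpc2, on chromosome 7 (44501699 to 44524656, minus strand), encodes a thick-filament protein that tunes cross-bridges in fast fibres. WT libraries held 621, 649, 806, 641 and 410, and KO libraries 3594, 3480, 3074, 4639 and 5124. The lowest KO library stood well above the highest WT library. Means were 3982 ± 861 in KO and 625 ± 141 in WT, a log2 change of 2.68 (SE 0.28, limma adjusted p = 1.3e-05).

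Myl1, on chromosome 1 (66924295 to 66945404, minus strand), had the smallest adjusted p of the 9. WT libraries held 121, 92.2, 166, 110 and 169, and KO libraries 2815, 1474, 776, 1392 and 1950. The groups did not overlap, and KO libraries varied more among themselves than WT libraries. Means were 1682 ± 759 and 131 ± 34.3, a ratio of 12.8 (log2 3.58, SE 0.30, limma adjusted p = 1.7e-06). Myl1 shares 23.4% of its 50-base windows with the pseudogene Mylf-ps, so part of its reads could have been assigned either way.

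Among the troponins the slow inhibitory subunit Tnni1 and the fast subunit Tnni2 went opposite ways. Tnni1 (chromosome 1, 135779434 to 135810989, plus strand) held 1.95, 0, 0.951, 1.03 and 3.10 in WT and 19.3, 20.6, 14.5, 32.0 and 24.8 in KO. It was near absent in WT and low in every KO library, with means of 1.41 ± 1.17 and 22.3 ± 6.59 (log2 3.38, SE 0.49, limma adjusted p = 0.000236). Since WT lies near 0, this log2 change depends on the added 1.

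Tnni2 (chromosome 7, 142441808 to 142444410, plus strand) held 17.4, 16.5, 13.3, 16.5 and 44.0 in WT and 13.8, 5.88, 7.66, 2.19 and 4.95 in KO. The groups touched, since KO library 1 lay just above WT library 3, and WT library 5 stood far above the other WT libraries. The log2 change was -1.55 (SE 0.41, limma adjusted p = 0.0161). The call was lost in 2 of 24 alternatives, among libraries without Xist (-1.25, adjusted p = 0.126) and with the Xist class as a covariate (-1.32, adjusted p of Tnni2 0.0560).

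Tnnt1 (chromosome 7, 4504570 to 4516382, minus strand), the slow tropomyosin-binding troponin, held 233, 184, 204, 335 and 394 in WT and 196, 163, 151, 142 and 143 in KO. KO library 1 lay within the WT range, and WT libraries 4 and 5, both with Xist, were the 2 highest. The log2 change was -0.71 (SE 0.22, limma adjusted p = 0.0351). The call of Tnnt1 was lost in 11 of 24 alternatives, among them those without WT library 1, 4 or 5 or KO library 2, 3, 4 or 5 (adjusted p of Tnnt1 0.0545 to 0.0919), libraries scaled to equal totals (-0.55, adjusted p = 0.0878) and libraries without Xist (-0.38, adjusted p = 0.171).

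Tnnt3 (chromosome 7, 142498836 to 142516009, plus strand), its fast relative, held 4.75, 14.9, 7.49, 11.9 and 12.0 in WT and 41.6, 12.3, 8.07, 14.04 and 27.6 in KO. KO libraries 1 and 5 were above all WT libraries and the other KO libraries lay within the WT range. The log2 difference was 0.82 (95% interval -0.30 to 1.93, limma adjusted p = 0.341).

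Of the calcium-store genes, Casq1 rose and Atp2a1 fell. Casq1 (chromosome 1, 172209894 to 172219868, minus strand), whose product binds calcium inside the sarcoplasmic reticulum, held 150, 112, 251, 207 and 209 in WT and 1357, 1582, 1526, 4472 and 2826 in KO. The 2 groups were far apart, and KO library 4 stood highest. Means were 2353 ± 1322 in KO and 186 ± 54.9 in WT, a ratio of 12.7 (log2 3.55, SE 0.37, limma adjusted p = 1.6e-05). An annotated gene on the opposite strand, Gm17224, overlaps 8.0% of the exonic bases of Casq1, and whether the counting used strand is not given in the sources used here.

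Atp2a1 (chromosome 7, 126445858 to 126463108, minus strand) held 15.6, 15.2, 15.1, 10.3 and 5.16 in WT and 3.54, 2.92, 7.69, 4.36 and 3.28 in KO. Only WT library 5 fell below the highest KO library. The log2 change was -1.28 (SE 0.38, limma adjusted p = 0.0292), and 7 of 23 alternatives ended the call: leaving out WT library 1, 2 or 3, leaving out KO library 1, 2 or 5, and leaving out both KO libraries of higher Sorbs2 (adjusted p of Atp2a1 up to 0.127). Exons of Rabep2 on the opposite strand overlap 21.9% of the exonic bases of Atp2a1, so values of this size are uncertain.

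Actn3 (chromosome 19, 4861216 to 4877909, minus strand), the Z-disc actinin of fast fibres, stayed under the filter. It held 1.95, 0.951, 1.89, 0 and 4.13 in WT and 3.53, 4.88, 0.961, 8.71 and 7.39 in KO. The groups overlapped, and the difference of mean log2 values was 1.13 with an exact two-sided permutation p of 0.0794 over 252 splits, the smallest possible p being 0.00794.

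**Figure D1:**
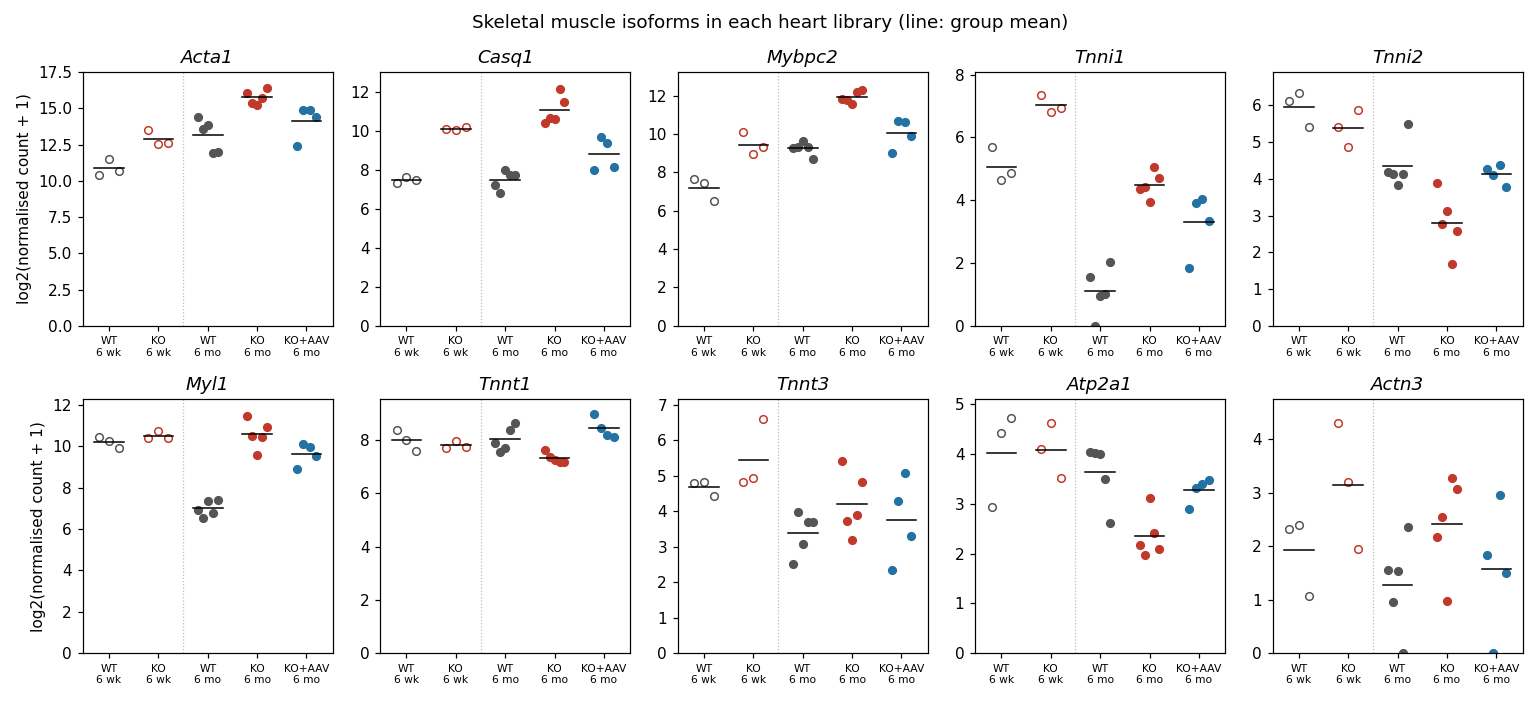
Normalised counts of the 10 skeletal isoforms as log2(value + 1), 1 point per library and 1 panel per gene, with a line at the group mean; open points are 6-week libraries and filled points 6-month libraries, and the 2 ages were normalised separately. In the panels of Acta1, Casq1, Mybpc2, Tnni1 and Myl1 all 5 KO points at 6 months lie above all 5 WT points. How many of all genes separate in this way was not counted. The points of Tnni2, Tnnt1 and Atp2a1 overlap.

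The KO+AAV hearts were compared with untreated KO hearts at 6 months, and this contrast shares the KO libraries with the one above. No KO group received a vector without Sorbs2. An effect of returned Sorbs2 therefore cannot be told apart from one of the injection or the virus. Casq1 and Mybpc2 fell and Tnnt1 rose, while Acta1, Myl1, Tnni1, Tnni2, Tnnt3 and Atp2a1 did not pass. Over all genes tested 1509 (11.2%) passed, 5.55% as increases and 5.69% as decreases, against 1 increase and 2 decreases among the 9 tested isoforms.

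Casq1 held 255, 810, 662 and 280 in KO+AAV libraries 1 to 4, all under the lowest KO library. Its mean of 502 ± 277 (n = 4) was 4.69-fold below that of KO (log2 -2.25, SE 0.40, limma adjusted p = 0.00305). Mybpc2 held 512, 1620, 1569 and 951, again with no overlap with KO (mean 1163 ± 530, log2 -1.89, SE 0.29, limma adjusted p = 0.00151). Tnnt1 held 507, 351, 288 and 278, all above the highest KO library, with a mean of 356 ± 106 (log2 1.12, SE 0.23, limma adjusted p = 0.00661).

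Acta1 in KO+AAV hearts held 5374, 30135, 29739 and 21385. All 4 values lay under the lowest KO library of 38750, but the libraries spread widely, and the log2 difference of -1.63 (95% interval -2.80 to -0.45) had a limma adjusted p of 0.0684. With KO and KO+AAV alone in the model, Acta1 passed at a limma adjusted p of 0.0478. In the 23 other alternatives Acta1 did not pass. Over all 24 its log2 difference ran from -1.88 to -0.86, with adjusted p up to 0.324.

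Myl1 held 474, 1092, 1018 and 749, and only KO library 3, at 776, reached into that range. Its log2 difference was -0.96 (95% interval -1.65 to -0.27, limma adjusted p = 0.0662), and without KO library 3 it was -1.21 (adjusted p of Myl1 0.0199). In the 23 other alternatives Myl1 did not pass. Over all 24 its log2 difference ran from -1.21 to -0.56, with adjusted p up to 0.312. KO library 3 was also the adult library with the highest atrial marker sum.

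The isoforms of low level did not pass in this comparison. Tnni1 held 2.61, 14.01, 15.6 and 9.21 in KO+AAV, overlapping KO (log2 -1.20, 95% interval -2.30 to -0.10, limma adjusted p = 0.137). Tnni2 held 18.2, 16.3, 19.6 and 12.7, of which the last lay under KO library 1 (log2 1.33, 95% interval 0.41 to 2.24, limma adjusted p = 0.0588). Without KO library 1 the difference in Tnni2 was 1.60 (adjusted p = 0.0241), and without WT library 5, which shares the model, its adjusted p was 0.0383. Tnni2 passed in 4 of 24 alternatives and did not pass in the other 20, where its adjusted p went up to 0.287. Atp2a1 held 6.48, 8.92, 9.60 and 10.1 (log2 0.91, adjusted p = 0.143), and Tnnt3 4.09, 18.5, 32.7 and 8.92 (log2 -0.46, adjusted p = 0.594). Actn3 held 2.59, 0, 6.73 and 1.84 (difference from KO -0.84, exact permutation p = 0.286).

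KO+AAV library 1 was the lowest of its group for Acta1, Casq1, Mybpc2, Tnni1, Myl1, Tnnt3 and Atp2a1 and the highest for Tnnt1. It also had the lowest Sorbs2 of that group, 4696, which is within the WT range, whereas libraries 3 and 4, with Sorbs2 of 15690 and 17923, stood at 29739 and 21385 for Acta1 and at 662 and 280 for Casq1. For Acta1 and Casq1 the order of the 4 libraries was thus not that of Sorbs2, while Atp2a1 followed the order of Sorbs2 and Tnnt1 the reverse order, over 4 libraries.

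Set against WT, the KO+AAV hearts show how far the treated group stood from intact hearts. This contrast shares its libraries with both others. Of all genes tested 178 (1.33%) passed, 0.611% as increases and 0.715% as decreases, and Myl1 passed as an increase. Myl1 averaged 833 ± 281 in KO+AAV, 6.34-fold above WT, and its lowest KO+AAV library, 474, exceeded the highest WT library, 169 (log2 2.62, SE 0.32, limma adjusted p = 0.000498). The call of Myl1 held in all 24 alternatives tried.

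Casq1 in KO+AAV did not overlap WT either, 255 being its lowest value against 251 as the highest of WT, but its log2 difference of 1.30 (95% interval 0.46 to 2.14) had a limma adjusted p of 0.113. Tnni1 differed from WT by 2.17 on the log2 scale (95% interval 1.07 to 3.27, limma adjusted p = 0.0520) and passed in 5 of 23 alternatives, among them the one without WT library 5 (adjusted p of Tnni1 0.0271). Without KO+AAV library 1, Tnni1 had 2.65 (adjusted p = 0.0146) and Mybpc2 1.13 (adjusted p = 0.0354). With that library Mybpc2 had 0.79 (adjusted p of Mybpc2 0.191), and Mybpc2 did not pass in the 23 other alternatives. Acta1 had a log2 difference of 0.98 (95% interval -0.20 to 2.15, adjusted p = 0.346), since KO+AAV libraries 2 and 3 stood above every WT library and library 1 near the lowest. Tnnt1 (0.42, adjusted p = 0.333), Tnni2 (-0.23, 0.766), Tnnt3 (0.36, 0.714) and Atp2a1 (-0.37, 0.599) gave smaller log2 differences that did not pass, and Actn3 differed by 0.29 (exact permutation p = 0.722).

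**Figure D2:**
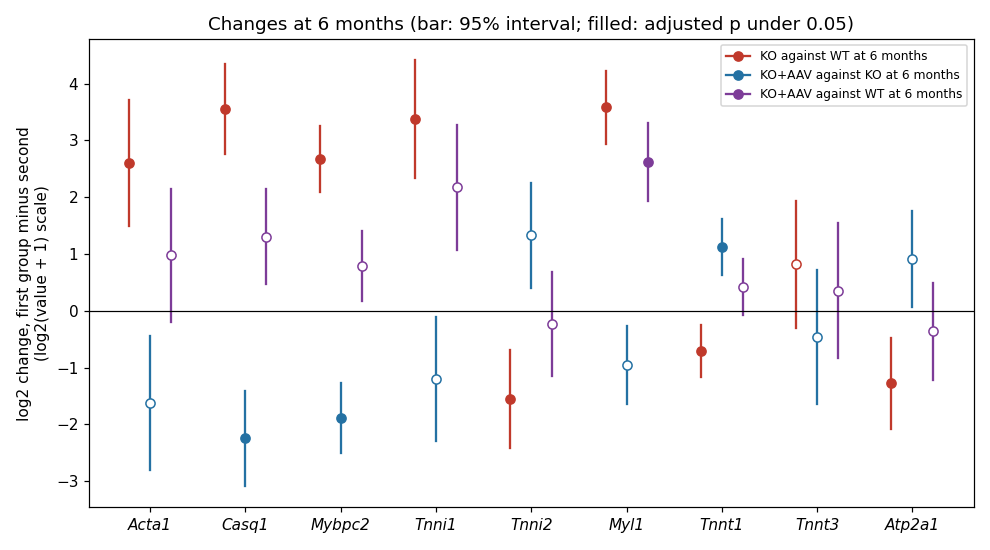
Log2 changes of the 9 tested isoforms on the log2(value + 1) scale for KO against WT, KO+AAV against KO and KO+AAV against WT at 6 months; bars are 95% intervals and filled points passed an adjusted p of 0.05. Myl1 alone is filled for KO+AAV against WT (2.62), and Casq1, Mybpc2 and Tnnt1 are filled for KO+AAV against KO.

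At 6 weeks the same genes are described without a test, because the set was chosen with this contrast known. Acta1 held 1347, 2863 and 1655 in WT1, WT6 and WT16 and 11395, 5893 and 6166 in KO2, KO3 and KO4, a ratio of means of 4.00. Casq1 held 161, 198 and 177 against 1082, 1053 and 1154, with KO values closer together, relative to their mean, than those of the 9 other genes. Mybpc2 held 198, 174 and 89.7 against 1087, 494 and 632.

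Tnni1 held 50.5, 23.8 and 28.0 in WT and 160, 112 and 122 in KO. In these 4 genes every KO library was above every WT library. The share of all genes that separate in this way was not counted. The log2 changes were 2.01 for Acta1, 2.62 for Casq1, 2.25 for Mybpc2 and 1.97 for Tnni1.

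Myl1 was different at this age. It held 1382, 1222 and 978 in WT and 1357, 1726 and 1341 in KO, overlapping values with a log2 difference of 0.31. On the per-kb share described below, Myl1 was a larger part of its light-chain family in 6-week WT hearts than in 6-month WT hearts. The 6-week libraries also carried the atrial transcripts given above, and their part in this level was not tested.

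Tnni2 held 68.8, 80.5 and 41.5 in WT and 41.7, 28.1 and 57.2 in KO, with overlap. Tnnt1 held 329, 253 and 192 against 208, 249 and 211, and Atp2a1 6.64, 20.4 and 25.5 against 16.1, 23.7 and 10.5. Tnnt3 held 27.0, 27.4 and 20.6 against 27.4, 29.8 and 96.9, so that 1 KO library, KO4, set its higher mean. Actn3 held 3.97, 4.29 and 1.11 against 18.8, 8.14 and 2.87 and was not tested. Whether the KO effect on any of these genes differs between the ages was not tested.

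To set skeletal isoforms beside the cardiac genes they resemble, each normalised count was divided by the length of the gene's longest transcript, and the share of the family was taken. This share is formed within 1 library and so does not depend on the scaling of its table. Between ages it still sets libraries rich in atrial transcripts beside libraries poor in them, and for Myl1 this touches the family itself, since Myl4 averaged 24966 normalised counts per kb in 6-week WT and 57.8 in 6-month WT hearts. In adult WT hearts Acta1 made up 6.46 ± 3.32% of Acta1 plus Actc1, in KO 29.0 ± 7.63% and in KO+AAV 16.3 ± 9.62% (SD, n = 5, 5 and 4, and n = 3 in each 6-week group). At 6 weeks the share of Acta1 was 7.51 ± 2.22% in WT and 23.1 ± 4.14% in KO. Acta1 shares 2.22% of its 50-base windows with other actin genes and pseudogenes.

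The share of Casq1 was below that of Acta1 in the 3 adult groups and in young WT hearts, and above it in young KO hearts. Of Casq1 plus Casq2 it was 2.21 ± 0.878% in WT, 18.6 ± 7.80% in KO and 6.93 ± 5.17% in KO+AAV at 6 months, and 6.89 ± 1.15% in WT and 36.7 ± 7.15% in KO at 6 weeks. Mybpc2 made up 1.16 ± 0.269%, 7.92 ± 1.87% and 2.30 ± 1.02% of the myosin-binding protein C family in the 3 adult groups, and 0.696 ± 0.189% and 4.77 ± 1.33% in young WT and KO hearts. Myl1 made up 0.110 ± 0.0341% of Myl1, Myl3 and Myl4 in adult WT, 2.02 ± 0.759% in adult KO and 0.685 ± 0.222% in KO+AAV hearts, and 1.67 ± 0.359% and 2.28 ± 0.554% in young WT and KO hearts.

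The skeletal troponins, Atp2a1 and Actn3 stayed minor everywhere. The share of Tnni1 was 0.0387 ± 0.0150% in adult KO and 0.257 ± 0.0366% in young KO hearts. Tnnt1 had 0.249 ± 0.0480%, 0.230 ± 0.0285% and 0.298 ± 0.0145% of the troponin T family in adult WT, KO and KO+AAV hearts. Even at its highest in KO, Acta1 remained under Actc1 per kb, with 26798.2 to 59191.2 against 75218.6 to 112840 normalised counts per kb at 6 months.

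**Figure D3:**
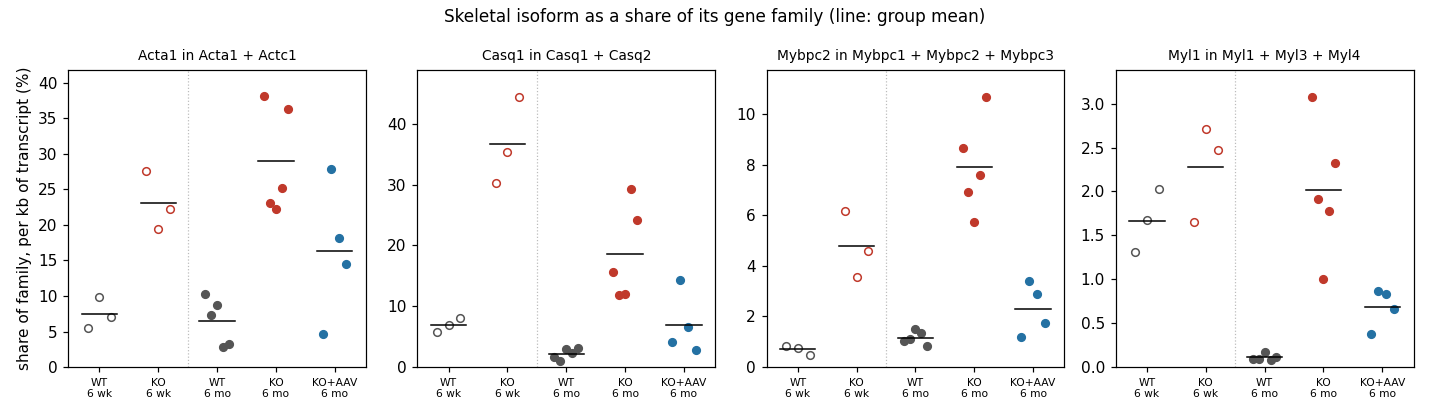
Share of the gene family (percent, normalised counts per kb of longest transcript) taken by Acta1, Casq1, Mybpc2 and Myl1 in each library, with a line at the group mean and open points at 6 weeks. The KO points at 6 months stand above the WT points in all 4 panels, and Casq1 reaches its highest shares in the 6-week KO libraries (mean 36.7%).

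None of the cardiac counterparts passed as an increase in adult KO hearts. Of 8 genes (Actc1, Casq2, Mybpc3, Tnni3, Myl3, Tnnt2, Atp2a2 and Actn2), 0 rose, 2 fell and 6 did not pass, with a median log2 change of -0.39 beside 0.0023 over all genes tested, and 3 of the 8 had an unadjusted limma p under 0.05. Tnni3, cardiac troponin I, fell by 0.97 (limma adjusted p = 0.0212) and Myl3 by 0.59 (adjusted p = 0.0389). Actc1 had -0.12 (adjusted p = 0.803) and Casq2 0.20 (adjusted p = 0.590), so the larger family shares of Acta1 and Casq1 went with the levels of Acta1 and Casq1 themselves. In KO+AAV against KO, Tnni3 (1.23, adjusted p = 0.0124) and Tnnt2 (0.75, adjusted p = 0.0433) rose.

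Tnnt1 is the gene next to Tnni3: on the minus strand of chromosome 7, Tnni3 comes first and Tnnt1 starts 1922 bases after it. Tnnt1 and Tnni3 varied together across the 14 adult libraries after group means were removed (Pearson r 0.947, Spearman rho 0.925, a description of libraries that share a table). The normalised count of Tnnt1 was 0.251% to 0.310% of that of Tnni3 in WT, 0.324% to 0.363% in KO and 0.263% to 0.371% in KO+AAV at 6 months. At 6 weeks it was 0.416% to 0.437% in WT and 0.447% to 0.623% in KO. Whether reads running on from Tnni3 were counted for Tnnt1 was not tested. The 2 other neighbouring troponin pairs were Tnni1 with Tnnt2 at 25364 bases (r -0.231) and Tnni2 with Tnnt3 at 54425 bases (r 0.302). Tnni1, Tnni2 and Tnnt3 reached at most 32.0, 44.0 and 41.6 in adult libraries. At such low levels these correlations cannot be compared with that of Tnnt1 and Tnni3. Mpv17 (r 0.975), 1110001J03Rik (0.970) and Etfb (0.959) varied with Tnnt1 more closely than Tnni3 did.

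**Figure D4:**
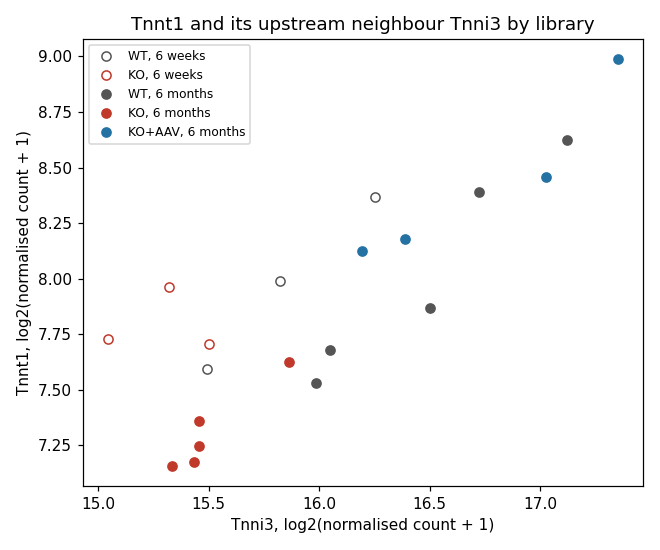
Normalised counts of Tnnt1 against those of its upstream neighbour Tnni3, both as log2(value + 1), 1 point per library, coloured by group, with open points at 6 weeks. At 6 months the KO libraries sit at the low end of both axes (Tnnt1 of 142 to 196) and KO+AAV library 1 at the high end (507), and the 6-week libraries lie above the adult ones at a like Tnni3 level.

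Other genes of skeletal muscle give the setting of these changes. Of 18 further skeletal muscle genes 7 were tested at 6 months, of which 3 rose, 2 fell and 2 did not pass, with a median log2 change of 0.15. Jsrp1, a protein of the skeletal sarcoplasmic reticulum, had 2.17 (limma adjusted p = 0.00441), Neb, the thin-filament ruler nebulin, 1.33 (adjusted p = 0.0153) and Klhl40, which stabilises nebulin, 0.71 (adjusted p = 0.0117). Cacna1s, the skeletal L-type channel, fell by 1.18 (adjusted p = 0.00311) and Tmod4, the skeletal tropomodulin, fell by 0.68 (adjusted p = 0.0115). The summed level of the 18 genes was 1030.3 to 1229.2 in WT, 1136.7 to 1642.6 in KO and 1160.3 to 1550.7 in KO+AAV.

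Among genes that define skeletal fibres, the fast myosin heavy chains were at or near 0 at 6 months. Mylpf and Tnnc2, also genes of skeletal muscle, were low but above 0 in all 14 libraries. Tnnc2 ranged from 0.911 to 12.3. The fast myosin heavy chains were listed at 0 in 9 (Myh1), 10 (Myh2) and 13 (Myh4) of 14 libraries, with maxima of 3.90, 5.69 and 1.28. Pvalb, the calcium buffer of fast fibres, was at 0 in 7 of 14 and reached 16.3, and Mylpf, the fast regulatory light chain, ranged from 2.90 to 25.6 with a KO minus WT log2 difference of -0.43 (adjusted p = 0.648). At 6 weeks Myh1, Myh2 and Myh4 were at 0 in 5, 4 and 5 of 6 libraries, Pvalb ranged from 11.2 to 37.1 and Mylpf from 3.78 to 19.0.

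Among 12 slow and developmental isoforms 7 were tested, and 2 rose: Myh7, myosin heavy chain of slow fibres (3.32, limma adjusted p = 7e-05), and Tpm2, beta-tropomyosin (1.21, adjusted p = 0.0123). The median of this list was -0.05. Of the 2 other muscle actins tested, smooth muscle Acta2 fell by 1.26 (adjusted p = 0.000248) and Actc1 did not pass. In the 19 calcium-store genes other than Casq1 and Atp2a1, 16 were tested, 2 rose (Ryr3, a ryanodine receptor, 4.37, and Jsrp1) and 2 fell (Hrc, -0.91, and Asph, -0.35).

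Regulators of the skeletal muscle programme were tested for 14 of 22 names, with 3 increases, 0 decreases and 11 that did not pass (median -0.02, with 5 of the 14 at an unadjusted limma p under 0.05). Vgll2, a TEAD cofactor of skeletal muscle, held 1.95 to 6.61 in WT and 175 to 789 in KO (log2 6.45, limma adjusted p = 6.3e-07). Tbx15, a T-box factor of glycolytic fibres, held 6.19 to 25.7 in WT and 105 to 180 in KO (log2 2.98, adjusted p = 0.00012).

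Vgll2 and Tbx15 fell in KO+AAV against KO (log2 -3.17 and -1.60, limma adjusted p = 0.00124 and 0.0243). Against WT, Vgll2 (3.28, adjusted p = 0.00204) was still higher in KO+AAV, while Tbx15 had 1.37 (adjusted p = 0.118). The myogenic determination factors were close to absent, with maxima of 1.95 for Myod1, 0.957 for Myog, 3.89 for Myf5 and 0.820 for Myf6 at 6 months.

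Genes of cardiac load were also higher in adult KO hearts. All 9 tested of a list with Nppa, Nppb, Myh7 and Ankrd1 rose (median 2.66), and 8 of the 9 fell in KO+AAV against KO. Of the 5 isoforms that had risen 2 fell there. Acta1 (-1.63), Tnni1 (-1.20) and Myl1 (-0.96) had negative log2 differences that did not pass. Both contrasts use the KO libraries in which these genes were high. Whether the isoforms and the load list differ in their fall was not tested. At 6 weeks 1 of 8 tested genes of this list passed as an increase in KO and 7 did not pass, in a comparison where 78 of 13242 genes tested (0.589%) passed, 0.378% as increases and 0.211% as decreases. Of 8 fibroblast markers 6 rose, their sum being 25992 to 38058.5 in KO and 13906.9 to 19099 in WT, and of 7 endothelial markers none passed (1 at an unadjusted p under 0.05). The part of either list in the isoform changes was not tested.

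The genes whose adult levels varied most like each isoform were sought among 9463 genes with a mean of at least 100, by Pearson correlation over the 14 adult libraries after removal of group means. Closest to Acta1 were Pfkp (0.946), Enah (0.929) and Hsph1 (0.921), and closest to Mybpc2 were Fhl1 (0.916), Asap2 (0.870) and Panx1 (0.868). For Tnnt1 they were Mpv17 (0.975), 1110001J03Rik (0.970) and Etfb (0.959). For Casq1 they were Zfyve27 (0.813), Isg20l2 (0.805) and 6430548M08Rik (0.795), and for Myl1 Rmnd5b (0.867), Lrrcc1 (0.857) and Mxra7 (0.855). The highest of 9463 correlations over 14 libraries are large in part because they were selected.

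Among themselves the isoforms varied in part together. The within-group correlation was 0.774 for Acta1 with Mybpc2, 0.716 for Myl1 with Tnnt3, 0.698 for Casq1 with Tnni1, 0.683 for Casq1 with Mybpc2, 0.631 for Tnni1 with Myl1 and 0.601 for Tnni2 with Tnnt1. Tnnt1 ran against Acta1 (-0.768), Atp2a1 (-0.740) and Mybpc2 (-0.637), and Acta1 with Casq1 gave 0.273. Apart from this last pair, those named are the largest, in either direction, of all pairs of the isoforms, and so were selected. The low levels of Tnni1, Tnni2, Tnnt3 and Atp2a1 limit the correlations that include them.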

How the data were processed

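Poly(A) RNA of 20 mouse hearts was sequenced from stranded libraries as 150 bp read pairs, with at least 40 M pairs per library per the series text. Each age has its own deposited table of gene-level normalised counts, scaled separately by the authors (a signal, with fractional values and none below 0). The build was mm10 per the submitters' processing notes, and DESeq2 is named in the series text for the authors' own comparisons. Aligner, counter and annotation: not given in the sources used here. At 6 weeks, columns matched groups and not single samples. No column was left out (0).

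Values were taken as log2(value + 1). Genes with a value of at least 10 in 4 libraries (6 months) or 3 (6 weeks) were tested with limma 3.58.1 in R 4.3.3, two-sided, with a mean-variance trend and 1 model for the 3 adult groups. P-values were adjusted after Benjamini and Hochberg over all genes tested, at a threshold of 0.05. Intervals are 95%. A gene under the filter was compared by an exact permutation test. The scripts were tested on simulated data.

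Members and lists were chosen with earlier results of these data known. Named genes are the 10 members, their cardiac counterparts and up to 4 genes of smallest p per list. The 3 genes most correlated with each member of mean at least 100 are also named. Genes named beyond that rule (atrial, myosin and other skeletal muscle markers, myogenic factors) define a cell type or belong to a list. They were named after their values were seen. Of the regulators of the muscle programme that rose, 1 is not reported here. Gene positions and lengths are from the mm10 annotation. Counts behind the values are unknown, so no counting intervals are given. Plots used matplotlib 3.10.9.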

Additional observations from a re-analysis of the deposited data

Results flagged for a closer look

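Tnni2 in the adult WT group held 1 library that stood apart: WT library 5, at 44.0 normalised counts, against 13.3 to 17.4 in the other 4. In 30 groups of 4 or 5 libraries examined (10 genes in 3 adult groups), chance alone flags about 1 in 20. WT library 5 was also the highest of WT for Tnni1, Myl1, Tnnt1 and Actn3 and the lowest for Mybpc2 and Atp2a1. Of other skeletal muscle genes, Mylpf (25.6), Tnnc2 (12.3) and Stac3 (25.7) were highest of WT there. Neb (35.1) was lowest there, and Myh1, Myh2, Myh4 and Pvalb stood at 0. Without that library the KO minus WT difference in Tnni2 kept its direction and call, and the KO+AAV minus WT difference went from -0.23 to 0.057, neither of which passed.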

How the results depend on the processing

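For KO against WT at 6 months the 5 increases (Acta1, Casq1, Mybpc2, Tnni1 and Myl1) held in all 24 alternatives. The 3 decreases became 1 with the Xist class as a covariate, 1 without the 2 KO libraries of higher Sorbs2 and 1 in libraries without Xist only, and 1 to 3 when each library was left out (1 without WT 1, KO 2 or KO 5). Genes called went from 2189 to 1402 without those 2 KO libraries, and to 1520 to 2353 with each library left out. For KO+AAV against KO, genes called went from 1509 to 542 with the Xist covariate, 332 in libraries without Xist only, and 568 to 1816 with each library left out (568 without KO+AAV 1, 855 without KO 5). Isoforms called higher went from 1 to 2 with no trend and to 2 without the 2 KO libraries, with a range of 1 to 2 when each library was left out. For KO+AAV against WT, genes called went from 178 to 102 with 2 groups only, 36 in libraries without Xist only, and 107 to 472 with each library left out (472 without WT 5). Isoforms called higher went from 1 to 2 with no filter, no trend or equal totals, with a range of 1 to 3 when each library was left out (3 without KO+AAV 1). At 6 weeks, genes called went from 78 to 12 with no trend, 36 with equal totals, and 7 to 163 with each library left out. Differences that reversed did not pass on either side: Tnnt3 in KO+AAV against KO (0.15 without the 2 KO libraries, and -0.90 to 0.0083 with each library left out, the latter without KO+AAV 1), Tnni2 in KO+AAV against WT (-0.36 to 0.057, the latter without WT 5) and Tnnt3 there (-0.084 without KO+AAV 3, to 0.83). Apart from the alternatives that use fewer libraries, the cause was not tested. The alternatives without the 2 KO libraries and without Xist libraries were added after seeing the data. Equal totals moved the median of all genes by 0.156 on the log2 scale for KO against WT and the share of increases from 49.8% to 73.1% (KO+AAV against KO 49.4% to 33.9%, KO+AAV against WT 46.1% to 65.8%, 6 weeks 64.1% to 75.0%).

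Replicate numbers did not pair the adult groups: 7 of 13 like-numbered pairs correlated above 0.1 (-0.391 to 0.253) and 0 of 13 were best matches. With the replicate number as a block, 2071, 1764 and 183 genes were called in the 3 adult comparisons, and the counts of isoforms called were unchanged (5 and 3, 1 and 2, 1 and 0). edgeR and DESeq2 were not run: 75.8% to 94.8% of low values were whole multiples of 1 step, within 0.1 of a step, under the 95% needed to recover reads. Low levels limit Tnni1, Tnni2, Tnnt3, Atp2a1 and Actn3, which held under 50 in every adult library.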
